A study of Danio rerio with 9 samples.

Results

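RNA purified from embryos given 4-thio-UTP was compared with RNA purified in the same way from unlabelled embryos at the 512-cell stage of the zebrafish (Danio rerio). The comparison rests on 3 of the 9 libraries of the series, 2 labelled libraries and 1 unlabelled library. Every gene in the table of 8969 gene IDs was placed by whether both labelled libraries stood above or below the unlabelled one, and genes of the nucleus and of the mitochondrial genome were counted apart. The mitochondrial genes are the 13 protein genes with a mitochondrial symbol. All other IDs are called nuclear, but 1941 of these 8956 have no symbol in the name list used, and so they could not be placed in either genome; mitochondrial ribosomal and transfer RNA genes may be among them. All embryos were wild-type, of the AB strain. In the labelled group, 1-cell embryos had received 4-thio-UTP by microinjection (50 mM, 1 nl). The labels repeat that injection text for the unlabelled group, and they do not say whether its embryos received a mock injection. The 2 labelled libraries are called technical replicates, so that p-values measure the spread between libraries and not between batches of embryos. The other 6 libraries are the same groups at the 128-cell and 256-cell stages.

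4-thio-UTP is a uridine nucleotide with a sulphur atom that RNA polymerases build into new transcripts, where it can be biotinylated and caught on streptavidin beads. An early zebrafish embryo divides on RNA that the mother laid down in the egg, and its own nuclear genome is switched on in steps towards the mid-blastula transition. Its mitochondria, also from the mother, carry a separate genome read by their own polymerase. RNA that sticks to the beads without a label is found in the unlabelled library, which serves as the background of the purification.

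The 3 libraries differed widely in composition. Genes at 1 FPKM or more (the authors' unit, read fragments per transcript length and library size) numbered 7416 in labelled replicate 1, 5603 in labelled replicate 2 and 4035 in the unlabelled library. IDs without a matched gene symbol held 78.6%, 86.8% and 98.7% of the FPKM sum in that order. Of the 25 IDs highest in the unlabelled library none had a symbol; they held 9 distinct sets of values and took 91.3% of its sum, against 3.42% and 13.4% in the labelled replicates. Nuclear genes with a symbol summed to 64058 and 25273 FPKM in the labelled replicates and to 14479 FPKM in the unlabelled library. The table gives no read counts, so the depth behind each value is unknown, and FPKM sums are not shares of reads. As evidence on the sample itself, the maternal homeobox gene nanog stood at 503, 290 and 79.7 FPKM, and the one differentiated-tissue gene in the table, the muscle actin gene actc1a, at 3.35, 1.09 and 0.

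Most genes in the table stood above the unlabelled library in both labelled replicates on the deposited scale. IDs listed at 0 numbered 6 and 25 in labelled replicates 1 and 2, and 353 in the unlabelled library. Shares are of the IDs in this table, and whether these were picked for detection in labelled RNA was not tested. Of the 8969 IDs, 6592 (73.5%) stood above the unlabelled library in both replicates and 512 (5.71%) below it in both. All 13 genes of the mitochondrial genome were among the former, beside 5242 of 7015 nuclear genes with a symbol and 1337 of 1941 IDs without one, 6579 of 8956 in all. Of the 512 IDs below none was mitochondrial by its symbol, 315 carry the symbol of a nuclear gene and 197 have none. A further 1798 IDs stood above the unlabelled library in replicate 1 alone, against 62 in replicate 2 alone. A 2-fold margin left 3650 IDs (40.7%) above in both and 116 (1.29%) below in both, of which 78 have no symbol.

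These shares depend on how the libraries are put on 1 scale. With median-of-ratios size factors, which were 1.53 and 0.719 for the labelled replicates and 0.463 for the unlabelled library, 4006 IDs (44.7%) stood above in both and 3380 (37.7%) below in both. With the 2-fold margin those became 1935 (21.6%) and 927 (10.3%). With 1 common sum over nuclear genes, 2240 nuclear IDs stood above in both and 1389 below in both. The 13 mitochondrial genes stood at least 2-fold above in both replicates on all 3 scales. The fitted median difference over all tested genes was 0.73 (log2) as deposited, 0.05 with size factors and 0.14 with 1 nuclear sum. Differences of single genes are given below after subtracting that median, that is relative to all tested genes. Their SE and p-values belong to the fitted difference before this subtraction, and not to the printed value. The subtraction does not fully remove the scale. For the 13 mitochondrial genes the relative median was 5.87 as deposited, 5.37 with size factors and 5.32 with 1 nuclear sum.

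**Figure D1:**
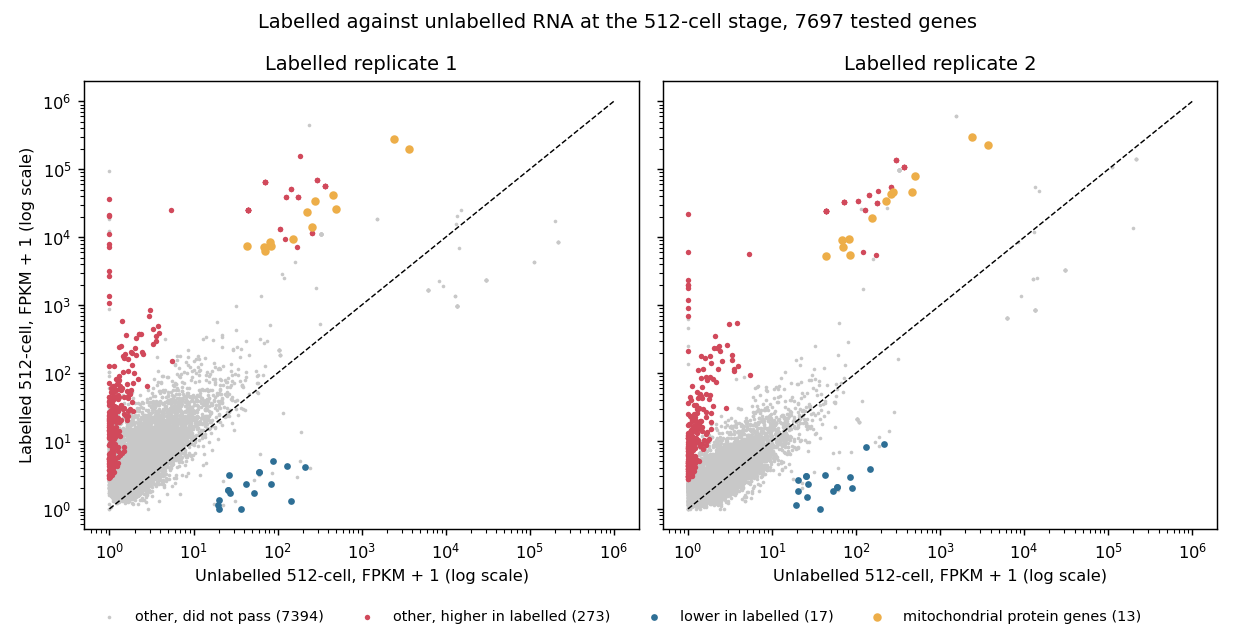
Each point is 1 of 7697 tested genes, with FPKM + 1 in the unlabelled 512-cell library on the horizontal log axis and FPKM + 1 in labelled replicate 1 (left) or replicate 2 (right) on the vertical log axis; the dashed line marks equal values. The 13 mitochondrial genes (orange) lie far above the line in both panels, the 273 other genes that were higher (red, 155 of them without a symbol) lie mostly at the left edge, and the 17 that were lower (blue) lie below the line.

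Testing each gene gave a much shorter list than the counts of direction. By limma on log2(FPKM + 1), with Benjamini-Hochberg adjustment over 7697 genes, 286 genes (3.72%) were higher in labelled RNA and 17 (0.221%) were lower (n = 2 labelled and 1 unlabelled library). The 286 comprise all 13 mitochondrial genes and 273 of 7684 others. Of the 273, 118 have the symbol of a nuclear gene and 155 have no symbol. With each set of IDs of identical values entered once, 257 genes outside the 13 were higher. Before adjustment, p was under 0.05 for 1030 higher and 58 lower genes. In the 118 nuclear genes with a symbol the median FPKM was 25.9 in labelled replicate 1, 9.36 in replicate 2 and 0.123 in the unlabelled library. This gap follows from choosing them by this test. In the unlabelled 512-cell library 27 of them were listed at 0. In the unlabelled libraries of all stages 102 of the 118 lay under 1 FPKM, beside 947 of the 7697 tested genes. Those 102 therefore passed the filter only through labelled libraries. In bulk RNA, fewer cells that make a transcript and less of it per cell cannot be told apart.

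The number of genes called depends on the scale and on the libraries that lend their spread, since the unlabelled group has 1 library. With size factors 686 of 7406 genes (9.26%) were higher and 287 (3.88%) lower, and the 118 nuclear genes with a symbol kept 116 of their calls. The count of 273 went to 418 or 443 when replicate 1 or 2 of the labelled 128-cell libraries was left out, to 569 or 619 for those of the 256-cell stage, and to 225 or 545 for those of the 512-cell stage. Of the 118 genes, 85 passed when any one of these libraries was left out. With replicate number as a block, 5087 genes outside the 13 were higher with the unlabelled libraries at number 1 and 3686 with them midway, and most of the lists below gained calls with them.

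Replicate 1 was the higher of the labelled libraries for nuclear genes, and replicate 2 for mitochondrial genes. Over the 7684 tested nuclear genes replicate 1 exceeded replicate 2 by a median of 2.18-fold, with 7187 genes higher in replicate 1. Over the 13 mitochondrial genes the same ratio was 0.882, with 11 genes higher in replicate 2. On the log2 scale the median nuclear gene stood 1.11 above the unlabelled library in replicate 1 and 0.35 above it in replicate 2, and the median mitochondrial gene 6.50 and 6.98 above it. Whether depth or input differed between the replicates was not tested.

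RNA of the mitochondrial genome showed the widest separation of any gene list with more than 1 tested member. Its 13 protein genes encode subunits of the respiratory chain and of ATP synthase. Together they summed to 670856 and 836746 FPKM in the labelled replicates and to 8279 FPKM in the unlabelled library, that is 19.5%, 12.8% and 0.456% of each library's sum. In no gene did the groups overlap: the lowest labelled value was 5351 FPKM, and the highest unlabelled value 3664 FPKM. By limma all 13 were higher, by 5.15 to 6.46 with a median of 5.87 relative to all tested genes. Single IDs without a symbol, which are on no list, went further, the largest called difference among them being 14.05. Of 110 tested IDs counted as nuclear with a mean of 1000 FPKM or more over all 9 libraries, 46 were higher and 0 lower. Of all tested genes 3.72% were higher and 0.221% lower. Labelled libraries outnumber unlabelled ones in that mean, which favours IDs that are high in labelled RNA. Of those 110, 99.1% have no symbol, and the quartiles of their relative difference lay at -3.30 and 8.17.

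Complex IV and complex I held the largest differences. MT-CO2, a catalytic subunit of cytochrome c oxidase (complex IV), stood at 7492 and 5351 FPKM in the labelled replicates and at 42.5 FPKM in the unlabelled library. Its difference was 6.46 ± 1.2 (SE, adjusted p = 0.00878 by limma), and the replicates stood 176-fold and 126-fold above the unlabelled library. MT-ND4, a proton-pumping subunit of complex I, stood at 34268 and 45582 FPKM against 276 FPKM, a difference of 6.43 ± 1.17 (adjusted p = 0.00787). MT-CO2 had the lowest level of the 13 genes in the unlabelled library, and MT-ND4 a level in the middle of their range.

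The smallest differences were still of the same order. The complex I gene MT-ND2 stood at 7351 and 5462 FPKM against 83.7 FPKM (5.50 ± 1.19, adjusted p = 0.0177 by limma). The ATP synthase gene mt-atp8 had 202364 and 228574 FPKM against 3664 FPKM (5.15 ± 0.95, adjusted p = 0.00779). It is the highest mitochondrial gene of the unlabelled library, while mt-nd4l, of complex I, is the highest of both labelled libraries at 282069 and 303286 FPKM against 2407 FPKM. Both are very short genes that overlap a neighbour, MT-ATP6 and MT-ND4, so reads could be split between them in counting.

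The replicates did not order the mitochondrial genes alike. Replicate 2 exceeded replicate 1 by 3.10-fold for MT-CO1, by 2.97-fold for MT-ND6 and by 2.05-fold for MT-ND3, and by 1.08 to 1.43-fold for 8 others. For MT-CO2 and MT-ND2 the ratio was 0.714 and 0.743. MT-ND6 is the protein gene read from the opposite strand of the mitochondrial DNA. Its levels were 26464 and 78559 FPKM against 501 FPKM, and its adjusted p of 0.0488 by limma was the closest to the threshold among the 13. With size factors 5 of the 13 passed (MT-CO2, MT-ND2, MT-ND1, MT-CYB and MT-CO3), with a median of 5.37 relative to all genes. Without labelled 512-cell replicate 1, 11 passed, and without replicate 2, 12.

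**Figure D2:**
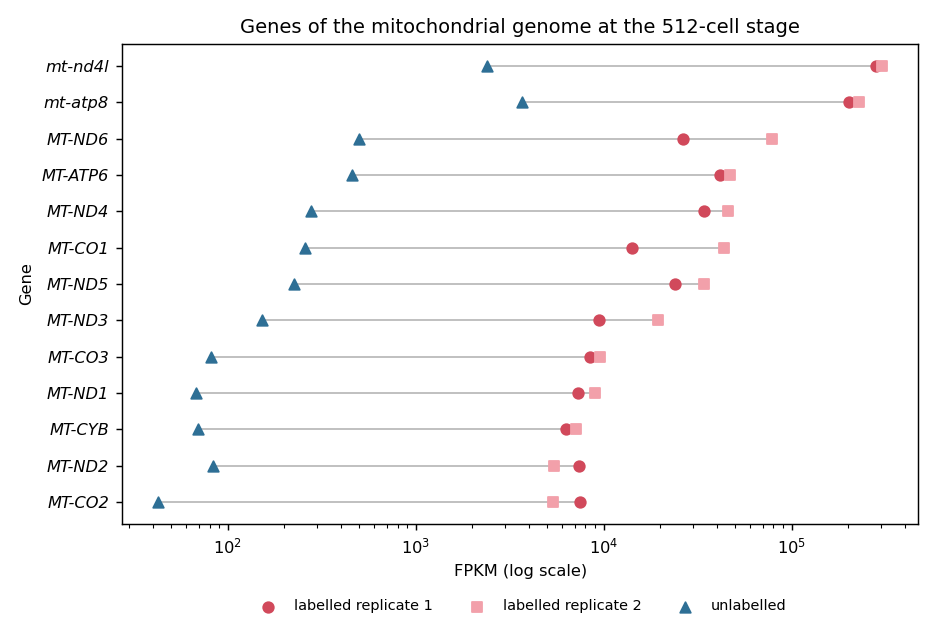
FPKM on a log axis for the 13 genes of the mitochondrial genome in labelled replicate 1 (circles), labelled replicate 2 (squares) and the unlabelled library (triangles) at the 512-cell stage, ordered by level in replicate 2. The unlabelled values lie between 42.5 and 3664 FPKM, and each gene's labelled values lie 52.9-fold or more above its own unlabelled value.

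None of the listed nuclear genes for the same organelle was called. At the 3.72% of all tested genes that were higher, lists of these sizes would hold few. Of 36 tested nuclear genes of the respiratory chain none passed by limma, 1 having an unadjusted p under 0.05, and the median was 0.17 relative to all tested genes. The cytochrome c gene cycsb stood at 33.2 and 7.12 FPKM against 1.97 FPKM (1.76 ± 1.12, adjusted p = 0.354). COX4I1, a nuclear subunit of complex IV, had 8.58 and 3.63 FPKM against 1.22 FPKM (0.86 ± 0.73, adjusted p = 0.367). With size factors 1 of 34 passed, atp5if1b, which inhibits ATP synthase and was listed at 0 in the unlabelled library, and without labelled 512-cell replicate 2 the number was 4. With replicate number as a block 29 and 19 were higher in its 2 forms, beside 5087 and 3686 of all 7684 tested nuclear genes. Of 6 tested genes for mitochondrial transcription and RNA handling none passed, also at an unadjusted p under 0.05, and the relative median was -0.38. LRPPRC, which binds mitochondrial mRNA, stood at 1.14 and 0.652 FPKM against 0.505 FPKM (-0.40 ± 0.46, adjusted p = 0.711 by limma). Its fitted difference, which that p tests, was 0.32 before the all-gene median was subtracted. With size factors fastk of this list was lower (adjusted p = 0.0447), its values being 3.05 and 1.33 FPKM against 2.35 FPKM.

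Among nuclear genes with an ordinary symbol, the 12 largest rises were led by transcription factors. The homeobox gene mxtx2, which acts in the yolk syncytial layer, stood at 574 and 84.9 FPKM in labelled replicates 1 and 2 and at 0.415 FPKM in the unlabelled library. Its difference of 6.57 ± 1.48 (adjusted p = 0.0235 by limma) was the largest, with the widest gap between replicates of the 12. The Iroquois homeobox gene irx7 had 240 and 109 FPKM against 0.304 FPKM (6.24 ± 0.96, adjusted p = 0.00532). In both genes even the lower labelled replicate lay far above the unlabelled library.

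The zinc-finger gene znf1089 was the exception in the order of replicates. It stood at 183 FPKM in replicate 1 and 230 FPKM in replicate 2, against 1.06 FPKM (5.92 ± 0.81, adjusted p = 0.00532 by limma). klf17, a Krüppel-like factor of the enveloping layer, had 375 and 114 FPKM against 1.26 FPKM (5.80 ± 1.18). The grainyhead factor grhl3, of the same covering epithelium, had 237 and 81.7 FPKM against 1.01 FPKM (5.40 ± 0.94), and the adjusted p was 0.0128 for klf17 and 0.00631 for grhl3.

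The other rises of the 12 came from receptors, chromatin, RNA-binding and cytoskeletal genes as well as factors. The apelin receptor gene aplnrb stood at 253 and 49.0 FPKM against 0.383 FPKM (5.62 ± 1.22, adjusted p = 0.018 by limma). The growth-arrest and stress-response symbol GADD45B belongs to 2 IDs, of which the called one had 127 and 62.9 FPKM against 0.123 FPKM (5.61 ± 0.98). marcksl1b, which encodes an actin-linked membrane protein, had 164 and 60.3 FPKM against 0.482 FPKM (5.36 ± 0.94). In all of these the unlabelled library lay under 1 FPKM.

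The zinc-finger gene blf reached 161 and 77.5 FPKM against 0.684 FPKM (5.34 ± 0.86), and the Hairy-related repressor gene her11 201 and 46.5 FPKM against 0.803 FPKM (5.04 ± 1.18). The replacement histone gene h3f3a stood at 355 and 114 FPKM against 2.55 FPKM (5.11 ± 1.25, adjusted p = 0.0299 by limma). It is the one of the 12 that lost its call when a library was left out, with an adjusted p of 0.0724 without labelled 512-cell replicate 1. The splicing factor gene srsf5a had 294 and 107 FPKM against 2.57 FPKM (4.92 ± 1.14, adjusted p = 0.0233). These last 2 genes had the highest unlabelled values of the 12. With 1 nuclear sum znf1089, klf17, h3f3a, her11 and srsf5a lost their calls, and without a variance trend mxtx2, aplnrb and her11 did.

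Several signalling and response genes were listed at 0 in the unlabelled library, where no fold can be given. ID1, an inhibitor of basic helix-loop-helix factors and a Bmp target, stood at 69.6 and 23.7 FPKM in the labelled replicates (4.66 ± 0.84, adjusted p = 0.00645 by limma). FGF20, a fibroblast growth factor, had 16.2 and 11.96 FPKM (adjusted p = 0.00779), and the early zygotic gene nnr 25.5 and 11.2 FPKM (adjusted p = 0.0061). For the chemokine receptor CXCR4, a symbol that 2 IDs share, the ID listed at 0 had 44.0 and 9.89 FPKM (adjusted p = 0.0313). The AP-1 gene FOS had 36.5 and 6.75 FPKM (adjusted p = 0.0397). Of these 5 genes ID1 alone stayed called from the 512-cell libraries alone.

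**Figure D3:**
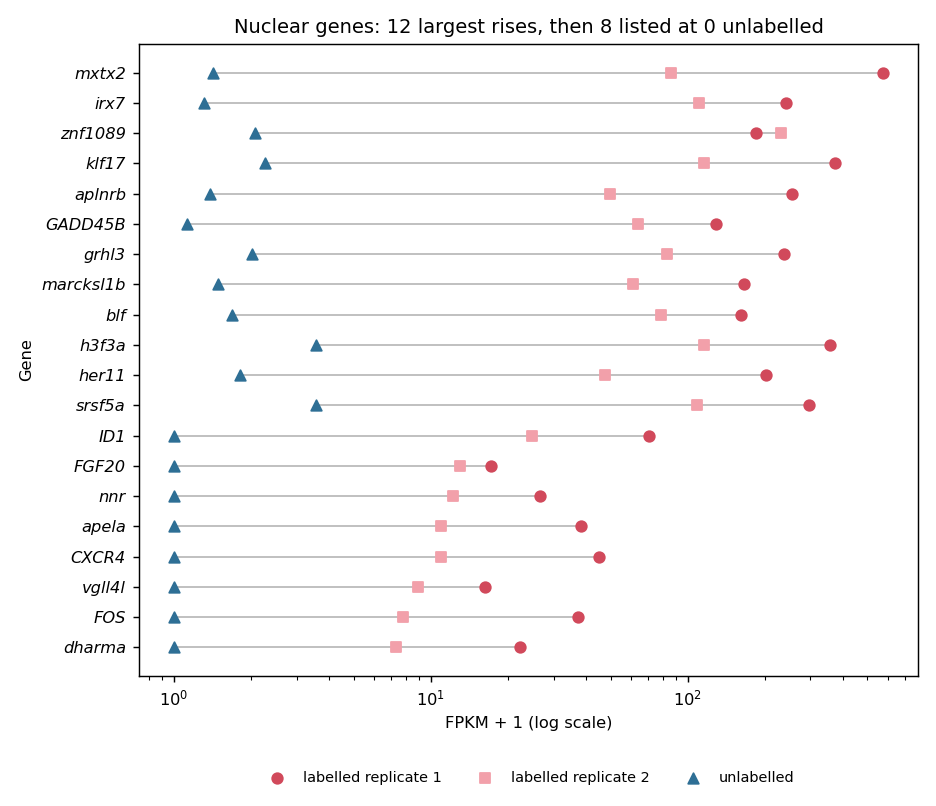
FPKM + 1 on a log axis in labelled replicate 1 (circles), labelled replicate 2 (squares) and the unlabelled library (triangles) for the 12 nuclear genes with the largest rises, from mxtx2 to srsf5a, and for 8 genes listed at 0 in the unlabelled library, from ID1 to dharma. The unlabelled values of the 12 lie between 0.123 and 2.57 FPKM, and both labelled values of every gene lie to the right of its unlabelled value.

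Transcription factor genes were named from lists chosen with earlier results of these data known, so their number among the named calls follows from that choice. The same limit holds for every list below, and some genes, such as GATA3 and noto, stand on more than 1 list. The 3.72% of all tested genes is printed for scale, and no list was tested against it. A list of homeobox, forkhead, Sox, Krüppel-like, T-box, Gata and Hairy-related genes had 65 tested members, of which 16 were higher and none lower by limma, where 3.72% of all tested genes were higher, and its median was 0.19 relative to all tested genes. It was matched by name and so also holds other genes, such as those of the HERC and HERPUD families. Its called members beyond those above include her5, another Hairy-related gene, at 58.2 and 43.0 FPKM against 0.0554 FPKM (4.87 ± 0.68, adjusted p = 0.00532). The forkhead gene foxd5 had 67.3 and 32.6 FPKM against 0.229 FPKM (4.56 ± 0.74, adjusted p = 0.00532), and FOXB1 14.1 and 9.93 FPKM against 0.0128 FPKM (2.94 ± 0.55, adjusted p = 0.00542). The remaining called members were the Sox genes SOX3, sox19a and SOX11, the Krüppel-like genes klf2a and klf2b, the Gata genes GATA2 and GATA3, noto and ZIC2, with differences from 2.04 (ZIC2) to 4.26 (SOX3). The other 49 members ranged from -2.73 (GATAD2B) to 2.95 (dharma). Size factors gave 23 higher and 3 lower, and 1 nuclear sum gave 7 higher. Leaving out replicate 2 of the labelled 256-cell libraries gave 26, and leaving out that of the 512-cell stage 25.

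The calls among zinc-finger genes came from few strong members in a long list. Of 94 tested, 11 were higher and none lower by limma, where 3.72% of all tested genes were higher, and the list's median was 0.07. After znf1089 and blf, the gene drll.3 stood at 102 and 45.1 FPKM against 0.447 FPKM (4.85 ± 0.87, adjusted p = 0.00665). znf1127 had 47.5 and 40.3 FPKM against 0.754 FPKM (3.95 ± 0.64, adjusted p = 0.00532), and its replicates lay closer together than those of drll.3. The smallest called difference was that of znf1020, at 1.09 ± 0.41 (adjusted p = 0.0371). Many of these genes have near-identical relatives, between which counting may split reads. Size factors gave 21 higher and 2 lower, where 9.26% and 3.88% of all genes were. The number higher was 3 with 1 nuclear sum, 4 from the 512-cell libraries alone, 5 without a variance trend and at a minimum of 5 FPKM, and 17 and 18 without labelled 256-cell replicate 1 and 2.

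Genes that set up the body axis stood above the unlabelled library throughout their list. In the list of Nodal, Bmp, Wnt and dorsal axis genes, 6 of 15 tested were higher by limma, beside 3.72% of all tested genes. This list, too, was chosen with earlier results of these data known. All 15 had a difference above the all-gene median, with a list median of 2.81. Members near 0 in the unlabelled libraries, such as apela, passed the filter only through labelled libraries where they were high, which by itself favours a positive difference. Among the ligands, the Nodal gene ndr1 stood at 22.4 and 7.83 FPKM against 0.168 FPKM (2.89 ± 0.83, adjusted p = 0.0397). The apelin receptor ligand gene apela, listed at 0 in the unlabelled library, had 37.4 and 9.98 FPKM (3.63 ± 0.81, adjusted p = 0.0153). Both the ligand apela and the receptor aplnrb of that pathway were therefore called.

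Inhibitors and transcriptional members filled the rest of the axis calls. The Wnt inhibitor gene dkk1b had 19.8 and 5.47 FPKM against a listed 0 (2.81 ± 0.84, adjusted p = 0.049 by limma). The notochord homeobox gene noto had 42.9 and 13.8 FPKM against 0.118 FPKM (3.78 ± 0.88, adjusted p = 0.0187). The cofactor gene vgll4l had 15.3 and 7.93 FPKM against a listed 0 (2.87 ± 0.65, adjusted p = 0.0132). In these 3 genes the lower labelled replicate was replicate 2.

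Several axis genes had differences as wide but missed the threshold. The Nodal inhibitor gene lft2 stood at 65.5 and 10.4 FPKM against 0.173 FPKM (3.83 ± 1.16, adjusted p = 0.0661 by limma). The dorsal organizer gene dharma had 21.2 and 6.32 FPKM against a listed 0 (2.95 ± 0.96, adjusted p = 0.075). The Nodal co-receptor gene tdgf1, also a maternal mRNA, had 35.2 and 14.7 FPKM against 1.17 FPKM (2.74 ± 0.89, adjusted p = 0.0687). Both labelled values of each stood above the unlabelled one, with replicate 1 the higher. The list's count was 14 of 16 with size factors, 12 with a pseudocount of 0.1, 4 with 1 nuclear sum, 2 at a minimum of 5 FPKM, 1 from the 512-cell libraries alone and 0 without a variance trend. It was 13 without either replicate of the labelled 128-cell or 256-cell libraries, and 12 and 5 without labelled 512-cell replicate 2 and 1.

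Genes of the embryo's outer tissues were few in the table and contained some of the widest differences. In the enveloping layer list, also chosen with earlier results known, 3 of 7 tested were higher by limma, beside 3.72% of all tested genes. The list's median was 1.76. Beside klf17 and grhl3 this was GATA3, a zinc-finger factor, at 63.1 and 29.98 FPKM against 1.83 FPKM (3.25 ± 0.79, adjusted p = 0.0216). The ectodermal factor gene TFAP2A had 9.83 and 2.09 FPKM against 0.0303 FPKM (1.76 ± 0.68, adjusted p = 0.086), and TP63 had a difference of -0.78. The count was 6 of 8 with size factors, 1 with 1 nuclear sum, and 5 when any labelled library other than 512-cell replicate 1 was left out. In the yolk syncytial list mxtx2 was the one tested gene, and its call was lost without a variance trend.

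Stress and immediate early genes, a list also chosen with earlier results known, were called in 6 of 13, beside 3.72% of all tested genes. The list's median was 2.66. mych, a Myc family gene, stood at 26.2 and 18.6 FPKM against 0.260 FPKM (3.47 ± 0.61, adjusted p = 0.00532 by limma). The small heat shock protein gene HSPB1 had 36.3 and 17.9 FPKM against 0.859 FPKM (3.11 ± 0.63, adjusted p = 0.0079). The immediate early genes IER5 and IER5L differed by 2.66 ± 0.64 (adjusted p = 0.0172) and 2.93 ± 0.78 (adjusted p = 0.0287), and the others called were FOS and DUSP6, a phosphatase induced by FGF signalling. None of the list passed with 1 nuclear sum or from the 512-cell libraries alone, 2 passed without a variance trend, 3 at a minimum of 5 FPKM and 8 with size factors. Since the labels leave the handling of the unlabelled embryos unstated, injection and label cannot be told apart in this list.

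RNA-processing and histone genes held single calls. Of 46 tested splicing and hnRNP genes 1, srsf5a, was higher by limma, no larger a share than the 3.72% of all tested genes. The list's median of 1.19 stood above that of all genes. Among all tested nuclear genes, however, the relative median rose with the mean level over the 9 libraries. It was -0.21 under 1 FPKM, 0.41 at 10 to 30 FPKM and 1.44 at 100 to 1000 FPKM. The lists were not matched for level. hnrnpa0b, an hnRNP A-type gene, had 315 and 86.0 FPKM against 3.58 FPKM (4.45 ± 1.25, adjusted p = 0.0509), a level and difference close to those of srsf5a. With size factors 12 of the list were higher, and with 1 nuclear sum 0. Without a single labelled library the number was 4 for each 128-cell replicate, 8 and 9 for 256-cell replicates 1 and 2, 8 for 512-cell replicate 2 and 1 for 512-cell replicate 1.

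Of 11 histone genes h3f3a alone was higher, with a list median of 0.50. The share of all tested genes that were higher was 3.72%, and 9.26% with size factors. H2AZ2, a variant histone gene, had 42.3 and 10.3 FPKM against 0.930 FPKM (2.79 ± 1.24, adjusted p = 0.202 by limma). The DNA-damage variant gene h2ax had 8.67 and 2.34 FPKM against 0.324 FPKM (1.37 ± 0.61, adjusted p = 0.105). The histone count was 4 with size factors, 0 with 1 nuclear sum, and 2, 3, 4, 4, 0 and 4 when the labelled libraries were left out in order of stage and replicate.

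Maternal, germ plasm, cell cycle and ribosomal genes gave no calls, but at the 3.72% of all tested genes lists of these sizes would hold few. None of 31 maternal mRNAs passed by limma, with a median of 0.36 and 2 members at an unadjusted p under 0.05. The maternal factor gene nanog had a difference of 1.52 ± 1.21 (adjusted p = 0.435), while slbp2, which binds histone mRNA in oocytes, had -1.31. None of 14 germ plasm genes passed, with 1 at an unadjusted p under 0.05 and a median of 0.32; the germline helicase gene DDX4 stood at 69.5 and 10.6 FPKM against 3.12 FPKM (2.07 ± 1.43, adjusted p = 0.413).

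None of 34 cell cycle genes passed by limma, with a median of 0.26 and 4 members at an unadjusted p under 0.05. WEE1, a kinase that holds back mitosis, had 12.1 and 4.41 FPKM against 0.552 FPKM (1.71 ± 0.70, adjusted p = 0.1). None of 50 cytosolic ribosomal protein genes passed, with 6 at an unadjusted p under 0.05, a median of 0.67 and 43 of them above the all-gene median. The relative median also rose with level over nuclear genes as a whole, and this list was not matched for level. RPL13A came nearest, at 27.0 and 13.6 FPKM against 1.22 FPKM (2.46 ± 0.83, adjusted p = 0.0731). With size factors 4 ribosomal, 4 cell cycle and 2 maternal genes were higher and none of the germ plasm list, and without labelled 512-cell replicate 2 the numbers were 7, 3, 1 and 0. Replicate number was also fitted as a block, with the unlabelled libraries at number 1 and midway. In these forms 46 and 41 ribosomal, 24 and 22 cell cycle, 23 and 19 maternal and 13 and 12 germ plasm genes were higher. Of all 7684 tested nuclear genes 5087 and 3686 were.

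**Figure D4:**
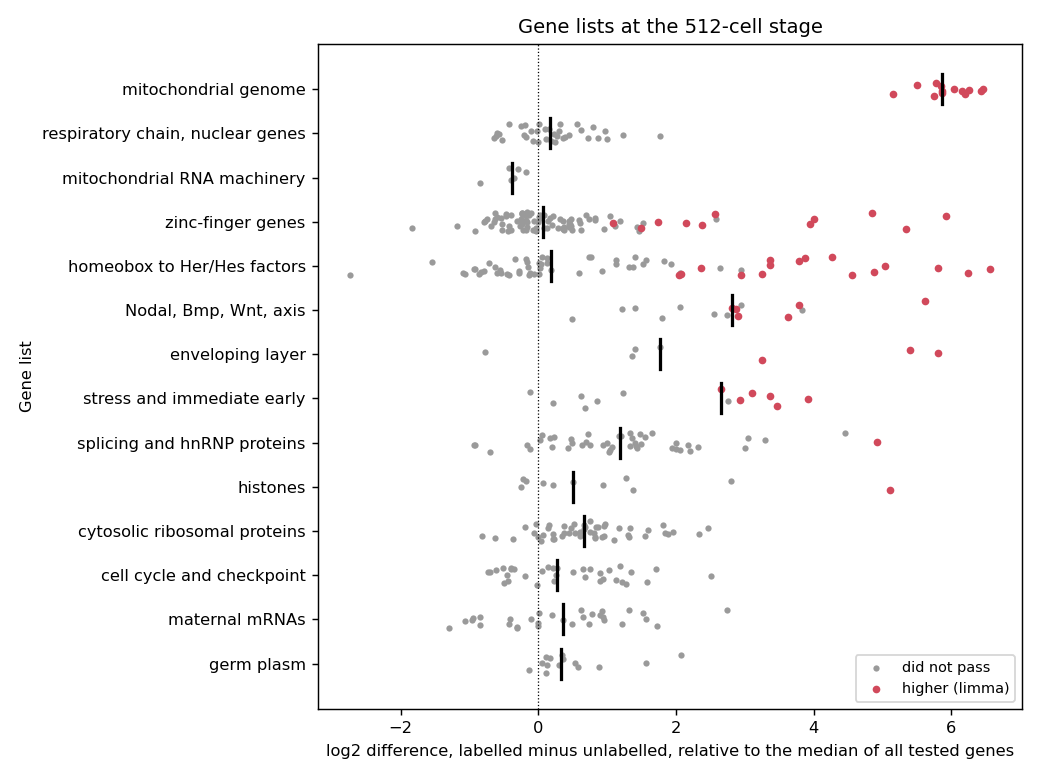
Each point is 1 tested gene of a list, placed by its log2 difference between labelled and unlabelled RNA at the 512-cell stage relative to the all-gene median; red points passed the limma test and black bars mark list medians. The mitochondrial genome lies apart at a median of 5.87, the axis and stress lists follow at 2.81 and 2.66, and the maternal and germ plasm lists lie at 0.36 and 0.32 without a red point.

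The genes that were lower in labelled RNA could not be named. All 17 that passed by limma lack a symbol in the list used, and they fell into 15 sets of distinct values. They stood between 18.5 and 212 FPKM in the unlabelled library, with a median of 41.2 FPKM. In the labelled libraries they lay between 0 and 7.90 FPKM, a gap that follows from choosing them by this test. Their relative differences lay between -6.74 and -4.12. Of the 17, 16 stood below the unlabelled library in both replicates at the 256-cell stage too, and 17 at the 128-cell stage. The shares of all tested genes below in both at those stages were not counted. At the 512-cell stage the share was 5.65%. At the 128-cell stage the fitted median of all tested genes was itself -0.18. Leaving out labelled replicate 1 or 2 gave a count of 31 or 32 for the 128-cell stage, 31 or 33 for the 256-cell stage and 10 or 25 for the 512-cell stage.

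The most abundant IDs of the unlabelled library did not pass. ENSDARG00000087034, whose values 3 other IDs share exactly, stood at 217063 FPKM there, and at 8439 and 140413 FPKM in the labelled replicates (-3.38 ± 2.13, adjusted p = 0.549 by limma). ENSDARG00000085067 stood at 199555 FPKM unlabelled, and at 17320 and 13561 FPKM labelled (-4.43 ± 0.96, adjusted p = 0.0709). In the former the replicates disagreed by far, and in the latter they lay close together.

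Among genes with a symbol, no fall passed by limma, and 7 had an unadjusted p under 0.05. These tests are of the fitted differences, which lie 0.73 above the relative ones printed below. The following were picked for their low values after these were seen. Metazoa_SRP, the RNA of the signal recognition particle, stood at 1.95 and 8.64 FPKM labelled against 169 FPKM unlabelled (-5.72 ± 1.43, adjusted p = 0.101). tnrc6bb.1, of the family of microRNA silencing proteins, had 1.61 and 1.05 FPKM against 21.7 FPKM (-4.03 ± 1.42, adjusted p = 0.335), and GATAD2B, a chromatin repressor subunit, 0.661 and 0.825 FPKM against 5.99 FPKM (-2.73 ± 0.53, adjusted p = 0.0766). With size factors GATAD2B passed (adjusted p = 0.0117), and without labelled 512-cell replicate 2 Metazoa_SRP did (adjusted p = 0.0117). The ribosomal RNA entry 5_8S_rRNA lay on both sides of the unlabelled 316 FPKM, at 533 and 158 FPKM.

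At the earlier stages fewer genes passed, while the mitochondrial medians relative to all tested genes lay close together. By the same fit 87 genes (1.13%) were higher and 0 lower at the 256-cell stage, and 6 (0.078%) higher and 0 lower at the 128-cell stage, where 25 and 134 genes were lower at an unadjusted p under 0.05. Of the 118 nuclear genes with a symbol called at the 512-cell stage, 13 were also called at the 256-cell stage, which is 11.02% of the 118 and all 13 of the genes of this kind called there; none was called at the 128-cell stage. Their median relative difference was 0.29, 1.42 and 3.03 in stage order, where the last is the stage they were chosen at. In 116 of them both labelled replicates stood above the unlabelled library at the 256-cell stage. At the 128-cell stage this held for 63, and 11 stood below in both. The shares of all tested genes at those stages were not counted, so these counts have nothing to be set against. At the 512-cell stage 73.4% of all tested genes stood above in both. The 13 mitochondrial genes had relative medians of 6.11, 5.95 and 5.87. Before the all-gene median was subtracted, their fitted medians were 5.93, 6.37 and 6.60. Of the 13, 1, 9 and 13 were called in stage order. At an unadjusted p under 0.05 by limma all 13 were higher at each stage.

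For single genes the fitted values at each stage are given as a description. No change between stages passed the test with the settings used for the calls above, which have no replicate block. The difference of irx7 was 1.77, 5.24 and 6.24 in stage order, and that of blf 0.66, 4.29 and 5.34. ID1, listed at 0 in the unlabelled 512-cell library, had 0.36, 1.72 and 4.66. GATA3 stood at 3.29 and 3.25 at the later stages, after 0.86 at the 128-cell stage.

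With the settings used for the calls above, the test of the difference between stages passed for no gene. By limma 0 genes had a change that differed between the 512-cell and 128-cell stages, with a smallest adjusted p of 0.197. At an unadjusted p under 0.05 the change was more positive at the 512-cell stage for 563 genes and more negative for 5. These are called wider and narrower below by sign alone. A gene lower in labelled RNA thus counts as narrower even where its gap grew. Between the 512-cell and 256-cell stages 0 passed, with 88 and 13 at an unadjusted p under 0.05. With size factors 131 genes were wider and 3 narrower against the 128-cell stage, and 0 against the 256-cell stage. On the deposited scale, the number wider than at the 128-cell stage was 4 or 0 when labelled 128-cell replicate 1 or 2 was left out, 146 or 200 for those of the 256-cell stage and 0 or 226 for those of the 512-cell stage. With replicate number as a block, 2886 genes were wider and 36 narrower against the 128-cell stage, and 18 and 15 against the 256-cell stage. The outcome thus depends on the scale, on the libraries kept and on whether the numbers pair the libraries, which the labels do not state.

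**Figure D5:**
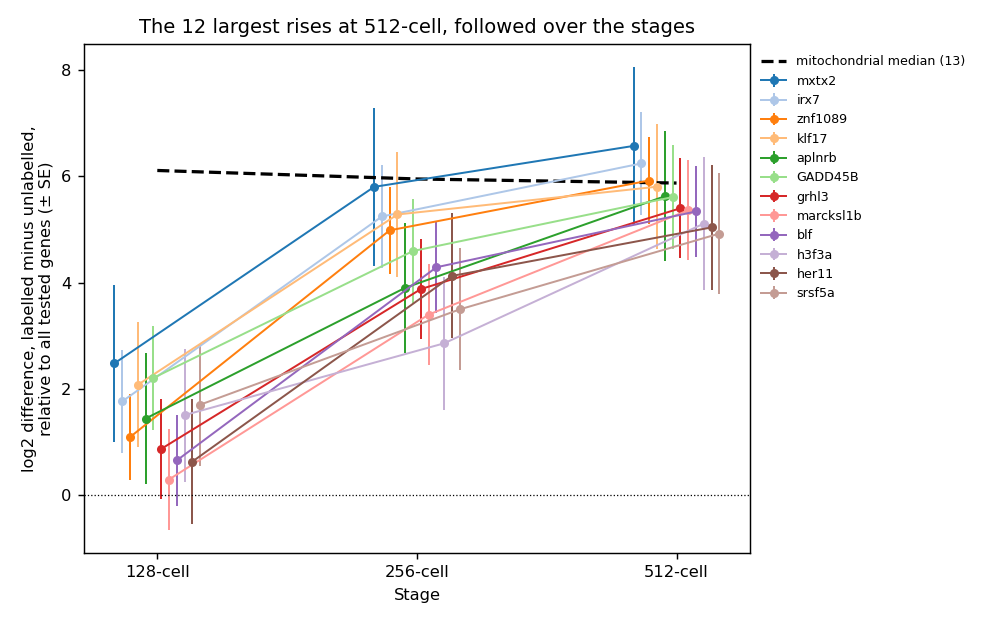
Log2 difference between labelled and unlabelled RNA, relative to the all-gene median, at the 128-cell, 256-cell and 512-cell stages for the 12 nuclear genes with the largest rises at the last stage; points are fitted values, bars are SE from the fit, and points are offset sideways for legibility. The 12 genes lie between 4.92 and 6.57 at the 512-cell stage, while the dashed median of the 13 mitochondrial genes stays between 5.87 and 6.11.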

How the data were processed

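The deposited table gives the authors' FPKM per gene and library. The submitters' processing notes name CASAVA 1.7, TopHat 1.3.3, Cufflinks 2.0.2 and the Zv9 build. The cDNA was amplified before library construction and again by 15 cycles of PCR, as the protocols in the labels state. The total behind the FPKM scale and the annotation are not given in the sources used here. A table with 1 value per stage, without unlabelled RNA, was not used. Symbols were matched by ID in a supplied name list for 7028 of 8969 IDs (78.4%); 94 IDs fall into 29 sets of identical values.

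A gene was tested if 2 or more libraries held 1 FPKM or more of it, which left 7697. A gene under 1 FPKM in every unlabelled library could pass this filter only through labelled libraries, which favours a positive difference. The test was limma 3.58.1 in R 4.3.3 on log2(FPKM + 1), with a pseudocount of 1. All 9 libraries entered as 6 group means, and variances were moderated along a trend with the mean. Tests were two-sided, p-values were adjusted by Benjamini-Hochberg over all tested genes, and the threshold was 0.05. The fit gives the lone unlabelled library the spread seen between labelled technical replicates. Calls, SE and p-values use the deposited scale and the difference before the all-gene median is subtracted. Printed differences are relative to that median and are shrunk by the pseudocount in low genes. Alternatives changed the scale, pseudocount, filter, variance model, libraries and replicate block.

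Members and lists were chosen with earlier results of these data known. Named were the 12 largest nuclear rises with an ordinary symbol and both replicates on 1 side, up to 8 such falls, 8 genes listed at 0, the 5 highest unlabelled genes, the extreme mitochondrial genes and up to 4 members per list with the smallest adjusted p. Other named members were chosen after their values were seen.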

Additional observations from a re-analysis of the deposited data

How the results depend on the processing

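None of the 43 called genes named by rule reversed direction under any alternative, and between 27 (1 nuclear sum) and 43 kept their call. Genes that were not called could change sign, such as LRPPRC, with a fitted difference of 0.32 as deposited and -0.20 with size factors. Genes counted as nuclear, those without a symbol included, were higher in 273 cases, and 121 with 1 nuclear sum, 122 from the 512-cell libraries alone, 147 without a variance trend, 150 at a minimum of 5 FPKM, 459 with a pseudocount of 0.1 and 681 with size factors, and 225 to 619 when a labelled library was left out. Nuclear genes lower numbered 17, and 2 from the 512-cell libraries alone, 287 with size factors, and 10 to 33 when a labelled library was left out. Mitochondrial genes higher numbered 13, and 5 with size factors and 11 to 13 when a library was left out, with a median of 5.40 to 6.64 there. Nuclear IDs above in both replicates numbered 6579, and 3993 with size factors, 2240 with 1 nuclear sum, 2450 at 5 FPKM and 3637 with a 2-fold margin; those below in both numbered 512, and 3380, 1389, 175 and 116 in that order. For the 512-cell change against that of the 128-cell stage, 0 genes were wider and 0 narrower, and 4 and 2 with a pseudocount of 0.1, 131 and 3 with size factors, and 0 to 226 and 0 to 2 when a library was left out. Against the 256-cell stage it was 0 and 0, and 0 to 1 in each direction when a library was left out. Wider and narrower again give only the sign of the stage difference. The cause of the movements in these counts was not tested. A stricter filter or an omission leaves a smaller number of genes or libraries, and the effect of that number was not tested either. Depth is unknown, so the precision of low values cannot be given.

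Replicate number as a block was fitted with the unlabelled libraries set to number 1 or midway. It gave 5087 and 3686 nuclear genes higher and 108 and 125 lower; in both forms 2886 wider and 36 narrower against the 128-cell stage, and 18 and 15 against the 256-cell stage. Deviations of same-numbered labelled libraries correlated across genes at 0.734, 0.762 and 0.658 between stages. What a number shares is not stated in the labels. There are only 2 numbers, and the titles of the unlabelled libraries carry none. The fit without a block was therefore kept.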
